A study of Arabidopsis thaliana with 6 samples.

Results

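Myrosinases and the other proteins that act on glucosinolates after synthesis were followed through 10 genes, chosen by their gene identifiers from the 37051 genes counted. They are the classical myrosinases TGG1 (AT5G26000) and TGG2 (AT5G25980), the glucosidases PEN2 (AT2G44490), PYK10 (AT3G09260) and BGLU18 (AT1G52400), the specifier and modifier proteins ESP (AT1G54040), NSP5 (AT5G48180) and ESM1 (AT3G14210), and the myrosinase-binding proteins MBP1 (AT1G52040) and MBP2 (AT1G52030). Their transcripts were measured by RNA-seq after laser capture microdissection (LCM), in which defined areas are cut out of frozen sections with a laser. All plants were Col-0, grown on soil in short days and moved to long days to flower, and the areas came from the second internode of the inflorescence stem. The 6 libraries comprised 2 replicates of the phloem cap, 2 of the pith and 2 of the vascular bundle from which the phloem cap had been cut away. Replicates are numbered in the order of their records, and because no label states that they came from separate plants, p-values below measure only the spread between these libraries.

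Glucosinolates are sulfur-rich defence compounds of the cabbage family that are kept apart from the enzymes that cleave them. Myrosinases remove the glucose when tissue is damaged, and the unstable product turns into an isothiocyanate, or into a nitrile or epithionitrile where a specifier protein takes part. In flower stalks, glucosinolate-rich S-cells lie outside the phloem, and myrosinase is known from neighbouring phloem idioblasts called myrosin cells and from guard cells. The comparison of phloem cap, pith and remaining vascular bundle addresses whether breakdown genes are transcribed in the tissue in which glucosinolates are made.

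The 5 glucosidases belong to 1 enzyme family but differ at the residue that acts as acid and base in cleavage. Typical beta-glucosidases have a glutamate there, as do the atypical myrosinases PEN2, PYK10 and BGLU18, while classical myrosinases have a glutamine and depend on ascorbate instead. The coding stretches around that codon are shown because they separate the classes whose transcripts are followed below. They were read on the coding strand from the TAIR10.1 genome, each 30 bases long within 1 exon, with the codon of the acid and base residue in capitals.
TGG1 (chr5:9081217-9081246, minus strand, glutamine): aactggatcaccatcaacCAGctatacaca
TGG2 (chr5:9073904-9073933, plus strand, glutamine): cactggatcaccatcaacCAGcttttcaca
PEN2 (chr2:18365854-18365883, plus strand, glutamate): ctgtggtgcacaatgaatGAGccgtgggtc
PYK10 (chr3:2842156-2842185, minus strand, glutamate): cattggatcactttcaatGAGccatgggtt
BGLU18 (chr1:19516371-19516400, plus strand, glutamate): cattggatcacatttaacGAGccatgggtg

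The libraries held 19324189 to 22571632 counted reads, and the upper limit behind a count of 0, which is 3 counts, was worth 0.126 to 0.165 CPM (counts scaled to 1000000 per library, with library sizes normalized by TMM). Replicates differed beyond counting noise in every tissue, with a chi-square per degree of freedom of 118 in phloem cap libraries, 66.1 in pith libraries and 37 in vascular bundle libraries. The pith markers of the study, ANAC074 and AT2G38380, together reached 62.7 and 174 CPM in the pith, against 1.23 and 1.66 CPM in the vascular bundle. The phloem cap markers of the study, CYP83A1 and CYP83B1, are glucosinolate synthesis genes themselves, so the check of that label is not separate from the pathway compared here. The 6 xylem markers summed to 236 and 665 CPM in phloem cap replicates 1 and 2, against 4950 and 5180 CPM in the vascular bundle, and the 6 epidermis markers to 19.9 and 166 CPM in the phloem cap, against 719 and 784 CPM in the vascular bundle. Phloem cap replicate 2 thus carried more of both marker sets than replicate 1. The 5 green cortex markers summed to 5430 and 7720 CPM in phloem cap libraries, 8140 and 5960 CPM in pith libraries and 10200 and 9750 CPM in vascular bundle libraries. Epidermis and green cortex markers were thus highest in the vascular bundle libraries, the reference for the other tissues. The part of outer tissue in the fold changes below was not tested. In dissected tissue, fewer cells of a type and less RNA per cell cannot be told apart.

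The 10 genes took 0.459 ± 0.129% of all counts in phloem cap libraries, 0.0376 ± 0.00537% in pith libraries and 0.184 ± 0.0229% in vascular bundle libraries (SD, n = 2 each). TGG1, TGG2, BGLU18 and MBP2 were most abundant in the phloem cap and had little transcript in the pith, whereas PEN2 was least abundant in the phloem cap, and NSP5 was plentiful in all 3 tissues. PYK10 had 4 and 0 counts in phloem cap libraries, 7 and 0 in pith libraries and 2 and 0 in vascular bundle libraries. ESM1 had 0 and 1 counts in phloem cap libraries, 2 and 0 in pith libraries and 0 and 0 in vascular bundle libraries. These near-empty genes failed edgeR's filter on low counts, so that 8 of the 10 genes were tested in each comparison. Each tissue pair was compared with edgeR's quasi-likelihood test on its 4 libraries. A gene was called when its Benjamini-Hochberg adjusted p was below 0.01 and its fold change above 2. The study applied these thresholds with the Wald test of DESeq2, whose calls are given beside those of edgeR.

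**Figure D1:**
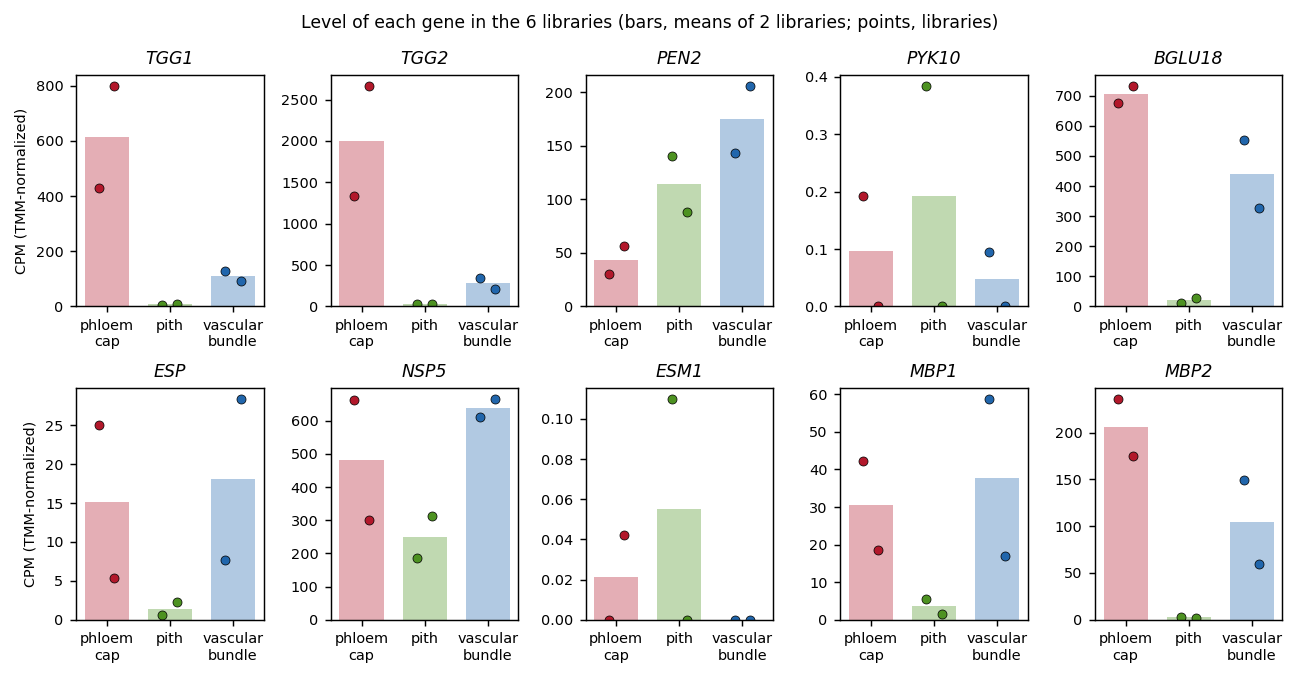
Each panel plots 1 gene, with TMM-normalized CPM on a vertical axis that starts at 0 and differs between panels, points for the 2 libraries of a tissue (replicate 1 on the left) and a bar for their mean. TGG1 and TGG2 stand highest in the phloem cap (615 and 2000 CPM on average), PEN2 in the vascular bundle (175 CPM), and the panels of PYK10 and ESM1 cover less than 1 CPM.

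For phloem cap against vascular bundle, edgeR called 0 of the 8 genes in either direction, and it called 0% of the 18528 genes tested higher and 0% lower. At an unadjusted p below 0.05, TGG1 and TGG2 were higher and PEN2 was lower, which were also the 3 genes called by DESeq2 (the share of all genes with such an unadjusted p was 9.93% higher and 11% lower, and DESeq2 called 2.87% higher and 3.9% lower). At the looser adjusted p below 0.05 edgeR still called 0 of the 8, beside 0.146% of all genes higher and 0.351% lower. The libraries did not overlap for 4 genes that were higher in the phloem cap, TGG1, TGG2, BGLU18 and MBP2, and for 1 that was lower, PEN2 (27.5% of all genes tested did not overlap and were higher, 26.4% lower). The median log2 fold change of the 8 genes was 0.20, beside 0.04 over all genes.

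For pith against vascular bundle, 4 of the 8 genes fell, namely TGG1, TGG2, BGLU18 and MBP2, where edgeR called 10.5% of 18063 genes lower. None rose (5.44% of all genes did), none was higher at an unadjusted p below 0.05 (18.2% of all genes), and none was called higher by DESeq2 (8.34%). At an unadjusted p below 0.05, 7 were lower (24.1% of all genes), and the same number passed the looser adjusted p below 0.05 (18%, with 10.1% higher). DESeq2 called 7 of the 8 lower, all but PEN2, with a background of 13.9%. All 8 had both pith libraries below both vascular bundle libraries, which held for 37.6% of all genes, with 32.2% higher, and their median log2 fold change was -3.56, beside -0.04 over all genes.

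For phloem cap against pith, the same TGG1, TGG2, BGLU18 and MBP2 rose, where edgeR called 8.33% of 18201 genes higher and 4.34% lower. DESeq2 added ESP and MBP1 for 6 genes higher and 0 lower, with a background of 12.6% and 7.35%. At the looser adjusted p below 0.05, edgeR called 6 higher and 1 lower (16.5% and 9.77% of all genes), and at an unadjusted p below 0.05 the counts were 6 and 1 as well (22% and 15.3%). Libraries did not overlap for 6 genes that were higher and for PEN2, which was lower, beside 35% and 29.9% of all genes, and PEN2 was the 1 gene lower at these thresholds while neither tool called it. The median log2 fold change was 4.23, beside 0.07 over all genes. The 3 comparisons share libraries and are therefore not independent of each other.

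**Figure D2:**
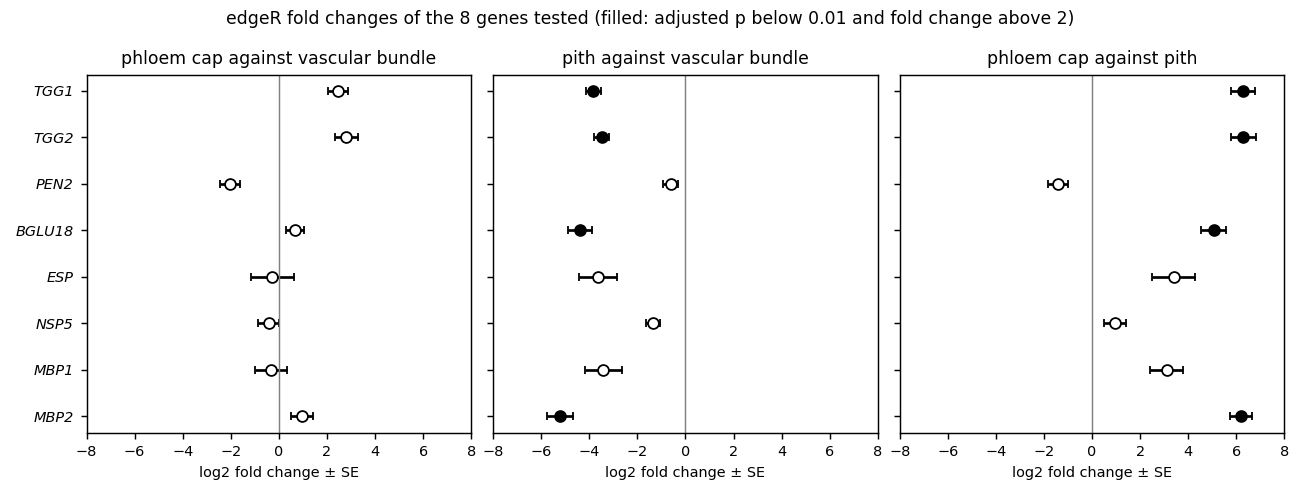
Points give edgeR's log2 fold change for the 8 genes tested and bars its SE, 1 panel per comparison on a shared scale, with filled points for genes called. The 4 filled points in the pith comparison lie between -5.23 and -3.48, and the 4 in the comparison of phloem cap and pith between 5.06 and 6.29.

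TGG1 and TGG2 encode the classical myrosinases of the shoot. TGG1 lies at chr5:9079452-9082384 on the minus strand and TGG2 at chr5:9072708-9075777 on the plus strand, each with up to 12 exons, and 3674 bases separate the ends of these converging genes. TGG1 had 429 and 801 CPM in phloem cap libraries, 6.44 and 9.30 CPM in pith libraries and 130 and 93.1 CPM in vascular bundle libraries. TGG2 had 1330 and 2670 CPM in phloem cap libraries, 24.6 and 26.3 CPM in pith libraries and 349 and 216 CPM in vascular bundle libraries. For both genes the 3 tissues were separated without overlap in the order phloem cap, vascular bundle, pith, and phloem cap replicate 2 stood above replicate 1.

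The log2 fold change of TGG1 was 2.45 ± 0.42 (SE) for phloem cap against vascular bundle, with an edgeR adjusted p of 0.0574, and that of TGG2 was 2.81 ± 0.49 with an adjusted p of 0.0583, so neither was called. DESeq2 called both, with adjusted p of 1.60e-07 for TGG1 and 2.22e-08 for TGG2. Without phloem cap replicate 2 the log2 fold changes were 1.92 (TGG1) and 2.21 (TGG2), and without replicate 1 they were 2.83 and 3.22. Without vascular bundle replicate 1 they were 2.69 and 3.17, and without replicate 2 they were 2.22 and 2.5. In a fit with 1 library of a tissue, here and below, the spread came from the other tissue alone. Whether a gene is called in such a fit depends on the spread of that other tissue. For pith against vascular bundle, TGG1 fell by 3.83 on the log2 scale (SE 0.32, edgeR adjusted p = 0.000435) and TGG2 fell by 3.48 (SE 0.31, adjusted p = 0.000538). The phloem cap exceeded the pith by 6.28 ± 0.51 for TGG1 and by 6.29 ± 0.51 for TGG2 (edgeR adjusted p = 0.000226 for both). The calls that involve the pith held with each library left out in turn.

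Per length, TGG2 transcripts outnumbered those of TGG1 in every library. The ratio of their TPM (counts per gene length, introns included, scaled to 1000000 per library) was 2.96 and 3.18 in phloem cap libraries, 3.65 and 2.70 in pith libraries and 2.56 and 2.22 in vascular bundle libraries. TGG2 was the 112th and the 38th most abundant gene by TPM in the phloem cap libraries, against ranks of 684 and 1126 in the vascular bundle. Relative to its mean over the 6 libraries, each of the genes deviated from their common profile by a root mean square of 0.107 on the log2 scale. That profile is the mean of these 2 genes, so the value is the same for both by construction. It is smaller than their distance from each other and not comparable with the distances of other genes given below. The paralogs were nearly parallel across the libraries. The share of 50-base exonic windows found elsewhere in the genome was 0.45% for TGG1 and 0.43% for TGG2, so few of their reads could map to more than 1 place.

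Because the paralogs moved together, the 250 bases before their annotated starts are shown, read from TAIR10.1 on each gene's strand. Capitals mark the runs of at least 12 bases that both share, in the same order.
TGG1 (chr5:9082385-9082634, minus strand): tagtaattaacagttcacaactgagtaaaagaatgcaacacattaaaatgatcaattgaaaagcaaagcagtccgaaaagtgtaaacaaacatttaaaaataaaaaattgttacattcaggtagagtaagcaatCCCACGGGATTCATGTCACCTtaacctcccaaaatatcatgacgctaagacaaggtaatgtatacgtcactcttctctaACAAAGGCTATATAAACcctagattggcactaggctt
TGG2 (chr5:9072458-9072707, plus strand): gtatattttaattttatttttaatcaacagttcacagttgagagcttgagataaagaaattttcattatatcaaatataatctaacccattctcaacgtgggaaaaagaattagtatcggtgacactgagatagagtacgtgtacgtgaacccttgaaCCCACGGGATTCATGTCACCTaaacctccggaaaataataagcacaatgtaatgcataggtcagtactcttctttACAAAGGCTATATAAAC
The first shared run, CCCACGGGATTCATGTCACCT, has 21 bases and lies 116 to 96 bases before the start of TGG1 and 92 to 72 bases before that of TGG2. The second, ACAAAGGCTATATAAAC, has 17 bases, lies 37 to 21 bases before TGG1 and 17 to 1 bases before TGG2, and holds the letters of a TATA box, TATATAA. With both strands searched, each run was found in 2 of 27443 promoters of protein-coding genes (0.00729%), which are these 2, and in 0 of the other genes described here. This describes shared letters and was not tested for any role.

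The other classical myrosinases were almost silent, as TGG3, TGG4 and TGG5, of which the TGG4 and TGG5 enzymes are known from roots, had 0 counts in all 6 libraries. TGG6 had 61 and 5 counts in phloem cap libraries, 0 and 2 in pith libraries and 1 and 2 in vascular bundle libraries, and 0 of these 4 genes passed the filter. FAMA, which encodes a transcription factor known from leaves to direct the formation of guard cells and myrosin cells, had 11.6 and 8.33 CPM in phloem cap libraries, 0 and 0.0525 CPM in pith libraries and 3.79 and 3.88 CPM in vascular bundle libraries. The phloem cap stood above the vascular bundle without overlap, but the log2 fold change of FAMA, 1.36 ± 0.34, was not called (edgeR adjusted p = 0.0870). With 0 and 1 counts in the pith no fold change against that tissue is given.

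The full list of 7 guard cell markers, which contains FAMA, summed to 186 and 122 CPM in phloem cap libraries, 92.1 and 110 CPM in pith libraries and 118 and 73.0 CPM in vascular bundle libraries. Potassium channel genes made up most of it. KAT1 had 95.8 and 37.6 CPM in phloem cap libraries, 0.220 and 1.94 CPM in pith libraries and 42.5 and 16.6 CPM in vascular bundle libraries, and GORK had 77.8 and 71.7 CPM, 91.6 and 108 CPM, and 67 and 46.9 CPM in the same libraries. MYB60 had 0.338 and 1.81 CPM in phloem cap libraries, 0 and 0 in pith libraries and 2.89 and 3.37 CPM in vascular bundle libraries. The log2 fold changes for phloem cap against vascular bundle were above 0 for FAMA (1.36), KAT1, GORK (0.38) and HT1 (0.13) and below 0 for MYB60 (-1.54) and SLAC1 (-1.86), and edgeR called none of these 6 genes there (edgeR adjusted p between 0.087 and 0.944). Between 0 and 2 of the 7 markers were at 0 in the phloem cap libraries, 3 or 4 in those of the pith and 0 in those of the vascular bundle. The 6 sieve element and companion cell markers summed to 4120 and 2570 CPM in phloem cap libraries, 51.3 and 72.5 CPM in pith libraries and 2040 and 1250 CPM in vascular bundle libraries, with 0 markers at 0, so they shared the tissue order of TGG1 and TGG2. The part of these cell types in the levels of TGG1 and TGG2 was not tested.

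PEN2 encodes a peroxisome- and mitochondrion-associated atypical myrosinase that cleaves indole glucosinolates in defence against microbes, and lies at chr2:18364652-18367835 on the plus strand. PEN2 had 30.2 and 56.2 CPM in phloem cap libraries, 140 and 88.2 CPM in pith libraries and 143 and 206 CPM in vascular bundle libraries. Both phloem cap libraries lay below all 4 others, and the pith libraries lay just below those of the vascular bundle. The log2 fold change for phloem cap against vascular bundle was -2.03 ± 0.40 (edgeR adjusted p = 0.0641, DESeq2 adjusted p = 4.47e-05). Without phloem cap replicate 2 it was -2.56, and without phloem cap replicate 1 it was -1.65. Without vascular bundle replicate 1 it was -2.29, and without vascular bundle replicate 2 it was -1.74. For pith against vascular bundle it was -0.62 ± 0.31 (edgeR adjusted p = 0.183), and for phloem cap against pith -1.41 ± 0.42 (edgeR adjusted p = 0.0366). Without a count filter the comparison with the pith passed in edgeR, with an adjusted p of 0.00612.

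Of 4 genes that act with PEN2, edgeR called 2 lower for pith against vascular bundle (GSTU13 and CYP81F2), beside 10.5% of all genes. It called 1 higher for phloem cap against pith (GSTU13), beside 8.33% of all genes. For phloem cap against vascular bundle, edgeR and DESeq2 called 0, and 0 had an unadjusted edgeR p below 0.05. Over all genes, 9.93% were higher and 11% lower at that p, and DESeq2 called 2.87% higher and 3.9% lower. GSTU13, a glutathione transferase of the PEN2 pathway, had 249 and 200 CPM in phloem cap libraries, 27.1 and 46.8 CPM in pith libraries and 188 and 189 CPM in vascular bundle libraries. It fell by 2.35 on the log2 scale for pith against vascular bundle (SE 0.31, edgeR adjusted p = 0.00218), an order of tissues unlike that of PEN2. PEN3, on the same list, had log2 fold changes with the signs of PEN2. They were -1.63 ± 0.71 for phloem cap against vascular bundle, -0.48 ± 0.31 for pith against vascular bundle and -1.14 ± 0.62 for phloem cap against pith. PCS1 had -0.34 ± 0.31, 0.78 ± 0.27 and -1.11 ± 0.37 in the same comparisons, so the phloem cap was lowest here too. Neither gene was called by edgeR in any comparison. CYP81F2, which hydroxylates the indole glucosinolate that PEN2 acts on, was scarce, with 2.41 and 1.09 CPM in phloem cap libraries, 0.0551 and 0.0525 CPM in pith libraries and 2.08 and 1.45 CPM in vascular bundle libraries. Both pith values lie below the upper limit behind a count of 0 in those libraries, 0.165 and 0.158 CPM. Its call for pith against vascular bundle thus rests on almost no reads in the pith.

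BGLU18 encodes a glucosidase of ER bodies, compartments of the endoplasmic reticulum filled with beta-glucosidase, and is known to cleave glucosylated abscisic acid and an indole glucosinolate. It lies at chr1:19514989-19518411 on the plus strand. BGLU18 had 675 and 734 CPM in phloem cap libraries, 12.8 and 29.3 CPM in pith libraries and 552 and 328 CPM in vascular bundle libraries. The phloem cap and the vascular bundle were close to each other, without overlap, and the pith was far below both. The log2 fold change was 0.67 ± 0.36 for phloem cap against vascular bundle (edgeR adjusted p = 0.358), so these neighbours were not separated by the test. BGLU18 fell by 4.39 for pith against vascular bundle (SE 0.49, edgeR adjusted p = 0.00114), and the phloem cap exceeded the pith by 5.06 ± 0.51 (edgeR adjusted p = 0.000412). Both calls held with each library left out.

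The gene next to BGLU18, 2191 bases downstream on the same strand, is TSA1, which encodes an ER body protein. TSA1 had 352 and 274 CPM in phloem cap libraries, 20.2 and 49.5 CPM in pith libraries and 299 and 180 CPM in vascular bundle libraries, the tissue order of BGLU18 but with an overlap of phloem cap and vascular bundle. It fell by 2.78 for pith against vascular bundle (SE 0.48, edgeR adjusted p = 0.00559). TSA1 was the 1 gene called lower there among the 5 on the ER body list, of which 3 were tested (10.5% of all genes). MEB1, which encodes an ER body membrane protein, had a log2 fold change above 0 there, with 14.7 and 21.6 CPM in phloem cap libraries, 28.4 and 13.5 CPM in pith libraries and 6.63 and 4.05 CPM in vascular bundle libraries. The fold change was 1.97 ± 0.46, which DESeq2 called and edgeR did not (edgeR adjusted p = 0.0182), and 8.45% of its exon length overlaps AT4G27852. For phloem cap against vascular bundle, the log2 fold change of MEB1 was 1.75 ± 0.38, without overlap of libraries (edgeR adjusted p = 0.0698). DESeq2 called 1 gene of the ER body list higher there, beside 2.87% of all genes. PYK10, the ER body glucosidase known mainly from roots and seedlings, was close to absent, as given above, and 7.64% of its exon length overlaps the neighbouring gene AT3G09250, with strand ignored in counting. NAI1, the transcription factor known to activate PYK10 in seedlings, had 0.0421 CPM in phloem cap replicate 2 and 0 in the other 5 libraries.

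Of 13 further relatives, BGLU19 to BGLU33 without PYK10 and PEN2, only BGLU25 and BGLU33 passed the filter. BGLU33 had 555 and 279 CPM in phloem cap libraries, 0.716 and 4.05 CPM in pith libraries and 183 and 102 CPM in vascular bundle libraries, so that its tissues were separated in the order found for TGG1 and TGG2. Its log2 fold change for phloem cap against vascular bundle was 1.54 ± 0.46 (edgeR adjusted p = 0.129), and it fell by 5.89 for pith against vascular bundle (SE 0.75, edgeR adjusted p = 0.00185). BGLU25 varied little, with 38.4 and 44.0 CPM in phloem cap libraries, 31.5 and 29.0 CPM in pith libraries and 47.6 and 48.4 CPM in vascular bundle libraries.

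The make-up of the glucosidase transcripts differed between the tissues. TGG1 and TGG2 together held 73.7% and 83.1% of the summed TPM of TGG1, TGG2, PEN2, PYK10 and BGLU18 in phloem cap libraries, 17.6% and 24.4% in pith libraries and 43.4% and 38.9% in vascular bundle libraries. PEN2 held 1.21% and 1.28% in phloem cap libraries, 75.8% and 57.7% in pith libraries and 12.3% and 24.6% in vascular bundle libraries. BGLU18 held 25.1% and 15.6% in phloem cap libraries, 6.43% and 17.8% in pith libraries and 44.3% and 36.4% in vascular bundle libraries. The most abundant class was therefore the classical myrosinases in both phloem cap libraries and PEN2 in both pith libraries. With exon length in place of gene length, the share of TGG1 and TGG2 was 74.8% and 83.9% in phloem cap libraries, 18.8% and 25.9% in pith libraries and 45.0% and 40.5% in vascular bundle libraries. These are shares of transcripts in each library and carry no test.

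**Figure D3:**
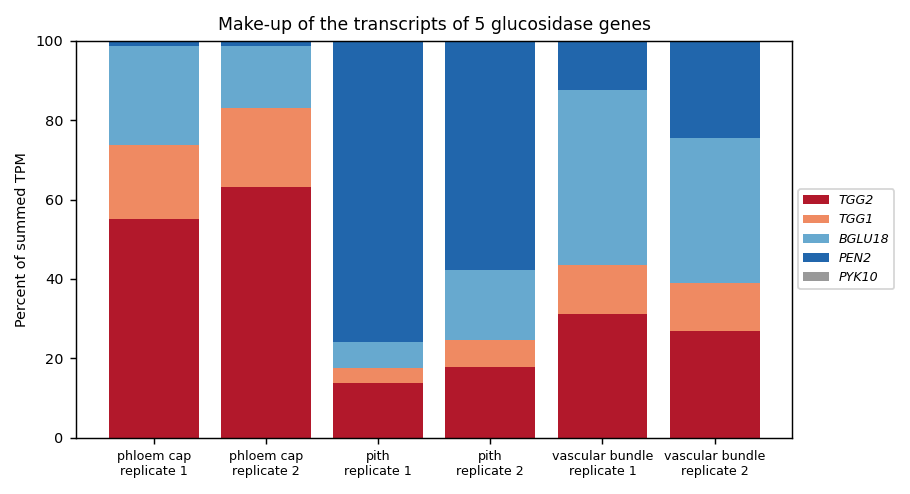
Each stacked bar is 1 library and shows the percent of the summed TPM of 5 glucosidase genes that each gene held. TGG2 filled 55.1% and 63.2% of the phloem cap bars, PEN2 75.8% and 57.7% of the pith bars, and BGLU18 44.3% and 36.4% of the vascular bundle bars.

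The specifier proteins steer the product of myrosinase. NSP5, a nitrile specifier protein that promotes simple nitriles, lies at chr5:19540937-19542760 on the minus strand. NSP5 had 663 and 302 CPM in phloem cap libraries, 187 and 313 CPM in pith libraries and 611 and 666 CPM in vascular bundle libraries. The phloem cap libraries overlapped with both other tissues, and those of the vascular bundle were close together. In TPM, NSP5 was the most abundant of the 10 genes in both pith libraries (194 and 332) and in both vascular bundle libraries (696 and 803), and it had 819 and 404 TPM in phloem cap libraries. Its log2 fold change was -0.42 ± 0.43 for phloem cap against vascular bundle (edgeR adjusted p = 0.640), with the sign turned to 0.03 without phloem cap replicate 2. It was -1.35 ± 0.29 for pith against vascular bundle (edgeR adjusted p = 0.0138, DESeq2 adjusted p = 9.14e-05), and edgeR called it without pith replicate 2, at -1.77, with library totals in place of TMM and without a count filter. For phloem cap against pith it was 0.94 ± 0.46 (edgeR adjusted p = 0.180).

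ESP, the epithiospecifier protein, promotes epithionitriles and nitriles, and Col-0 is known for little ESP activity. It lies at chr1:20170715-20173949 on the minus strand. ESP had 25.1 and 5.30 CPM in phloem cap libraries, 0.661 and 2.21 CPM in pith libraries and 7.67 and 28.4 CPM in vascular bundle libraries. The phloem cap and vascular bundle overlapped and their replicates lay far apart, while both pith libraries were below all others. The log2 fold change for phloem cap against vascular bundle was -0.27 ± 0.88 (edgeR adjusted p = 0.902), and it ranged from -1.79 to 0.97 as single libraries were left out, so its direction was not fixed. For pith against vascular bundle it was -3.65 ± 0.80 (edgeR adjusted p = 0.0142, DESeq2 adjusted p = 6.72e-06), with edgeR's call reached when vascular bundle replicate 1 was left out. For phloem cap against pith it was 3.40 ± 0.90 (edgeR adjusted p = 0.0282, DESeq2 adjusted p = 0.000502), with 1.86 without phloem cap replicate 1 and an edgeR call without phloem cap replicate 2.

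ESM1 encodes a protein of the GDSL lipase family that favours isothiocyanates over nitriles. Of its exonic windows, 24.85% recur elsewhere in the genome and so lose unique alignments, while the remaining windows, the larger part, are unique. The part of this recurrence in the near-zero counts of ESM1 was not tested. Of its 4 relatives on the list of GDSL lipase-like genes, MVP1 was the most abundant, with 42.6 and 32.5 CPM in phloem cap libraries, 30.6 and 31.1 CPM in pith libraries and 40.2 and 18.6 CPM in vascular bundle libraries. Its vascular bundle libraries overlapped those of both other tissues, and its log2 fold change was 0.07 ± 0.38 for pith against vascular bundle (edgeR adjusted p = 0.914). AT1G54020 had 15.7 and 19.5 CPM in phloem cap libraries, 0.220 and 0.631 CPM in pith libraries and 21.9 and 9.64 CPM in vascular bundle libraries. It fell by 5.19 for pith against vascular bundle (SE 0.68, edgeR adjusted p = 0.00208). Of the other 4 nitrile specifier genes, NSP1 alone passed the filter, with 72.6 and 66.7 CPM in phloem cap libraries, 4.35 and 9.09 CPM in pith libraries and 102 and 76.9 CPM in vascular bundle libraries. NSP1 fell by 3.74 for pith against vascular bundle (SE 0.41, edgeR adjusted p = 0.00103), and its level is uncertain because 27.53% of its exonic windows recur. Phloem cap and vascular bundle did not overlap for NSP1, yet differed by -0.38 ± 0.27 only (edgeR adjusted p = 0.491).

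The myrosinase-binding proteins are lectins of the jacalin family found in complexes with myrosinase. Their genes are neighbours on chromosome 1 and on the same strand (minus), with MBP2 at chr1:19345871-19349088, MBP1 at chr1:19350314-19352791 and 1225 bases between them. MBP2 had 236 and 175 CPM in phloem cap libraries, 3.36 and 2.21 CPM in pith libraries and 149 and 59.6 CPM in vascular bundle libraries. MBP1 had 42.3 and 18.6 CPM in phloem cap libraries, 5.56 and 1.52 CPM in pith libraries and 58.8 and 16.9 CPM in vascular bundle libraries. The phloem cap exceeded the vascular bundle without overlap for MBP2, overlapped with it for MBP1, and the pith was lowest for both.

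MBP2 fell by 5.23 for pith against vascular bundle (SE 0.54, edgeR adjusted p = 0.000880). That call was lost when either pith replicate was left out, with an adjusted p of up to 0.0135. MBP2 rose, for phloem cap against pith, by 6.20 ± 0.45 (edgeR adjusted p = 0.000220), with each library left out too, while phloem cap against vascular bundle gave 0.96 ± 0.47 (edgeR adjusted p = 0.313). The log2 fold change of MBP1 was -0.33 ± 0.67 for phloem cap against vascular bundle (edgeR adjusted p = 0.833) and 0.82 without vascular bundle replicate 1, so its direction changed with 1 library. MBP1 reached -3.42 ± 0.78 for pith against vascular bundle (edgeR adjusted p = 0.0163, DESeq2 adjusted p = 6.83e-06) and was called by edgeR without vascular bundle replicate 2. For phloem cap against pith it reached 3.10 ± 0.70 (edgeR adjusted p = 0.0148, DESeq2 adjusted p = 9.02e-05), and edgeR called it without phloem cap replicate 2, without pith replicate 1, with library totals and without a count filter.

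The balance of the neighbours also varied, with a TPM ratio of MBP2 to MBP1 of 4.29 and 7.27 in phloem cap libraries, 0.465 and 1.12 in pith libraries and 1.96 and 2.72 in vascular bundle libraries. The ratio was thus highest in both phloem cap libraries and lowest in both pith libraries, where it rests on low counts. Recurring exonic windows made up 0.83% of MBP2 and 1.54% of MBP1. Of the 15 related jacalin lectin genes listed, 5 were tested and edgeR called 0 in any comparison. At an unadjusted p below 0.05, 1 was higher and 1 lower for phloem cap against vascular bundle, 1 higher and 3 lower for pith against vascular bundle, and 2 higher and 1 lower for phloem cap against pith. DESeq2 called 0 higher and 1 lower, 1 higher and 2 lower, and 2 higher and 1 lower in the same comparisons. Over all genes, the shares higher and lower at that unadjusted p were 9.93% and 11%, 18.2% and 24.1%, and 22% and 15.3%. Those called by DESeq2 were 2.87% and 3.9%, 8.34% and 13.9%, and 12.6% and 7.35%. Those called by edgeR were 0% and 0%, 5.44% and 10.5%, and 8.33% and 4.34%. The most abundant, JAL35, had 675 and 350 CPM in phloem cap libraries, 34.5 and 123 CPM in pith libraries and 317 and 165 CPM in vascular bundle libraries. Of its exon length, 23.78% overlaps AT3G16460, which is JAL34 and also on the list. JAL34 went the other way, with -2.68 ± 1.18 for phloem cap against vascular bundle and 2.79 ± 0.62 for pith against vascular bundle. For phloem cap against vascular bundle, 3 of the 5 tested lectins had a log2 fold change above 0 and 2 below 0.

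Nitriles and related products can be processed further by nitrilases. On the list of 4, 3 were tested. NIT1, the most abundant, had 152 and 208 CPM in phloem cap libraries, 417 and 386 CPM in pith libraries and 341 and 508 CPM in vascular bundle libraries, so the phloem cap was lowest, as for PEN2 (edgeR adjusted p = 0.107 against the vascular bundle and 0.0355 against the pith). NIT4, which acts on cyanoalanine, had 6.71 and 6.56 CPM in phloem cap libraries, 0.440 and 0.578 CPM in pith libraries and 35.8 and 38.3 CPM in vascular bundle libraries. NIT4 fell by 6.17 for pith against vascular bundle (SE 0.36, edgeR adjusted p = 0.000255), and its value for phloem cap against vascular bundle was -2.50 ± 0.27 (edgeR adjusted p = 0.0486).

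The synthesis genes provided the comparison of where glucosinolates are made. The 24 genes of aliphatic glucosinolate synthesis summed to 13500 and 12200 CPM in phloem cap libraries, 1110 and 678 CPM in pith libraries and 5000 and 3700 CPM in vascular bundle libraries. The 15 genes of indole glucosinolate synthesis summed to 10400 and 8370 CPM in phloem cap libraries, 2740 and 2600 CPM in pith libraries and 6500 and 4980 CPM in vascular bundle libraries. The indole sum rests mostly on the glutathione transferase genes GSTF9 and GSTF10. GSTF9 had 6460 and 5480 CPM in phloem cap libraries, 647 and 793 CPM in pith libraries and 3790 and 2980 CPM in vascular bundle libraries, and GSTF10 had 1990 and 1590 CPM, 1950 and 1650 CPM, and 1700 and 1310 CPM in the same libraries. Without both, a choice made after their values were seen, the other 13 indole genes summed to 1910 and 1300 CPM in phloem cap libraries, 145 and 156 CPM in pith libraries and 1020 and 685 CPM in vascular bundle libraries, so that the pith lay further below the other tissues than in the full sum. These sums, with and without both genes, separated the tissues in the order phloem cap, vascular bundle, pith, which was the order of TGG1, TGG2, BGLU18 and MBP2 and not that of PEN2, ESP, NSP5 or MBP1.

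Among the 21 aliphatic genes tested, edgeR called 0 higher for phloem cap against vascular bundle, while 21 had an unadjusted p below 0.05, 20 were called by DESeq2 and the median log2 fold change was 1.55. It called 14 lower for pith against vascular bundle (median -2.69) and 21 higher for phloem cap against pith (median 4.26). Among the 11 indole genes tested, edgeR called 0 for phloem cap against vascular bundle (4 with an unadjusted p below 0.05, 2 by DESeq2, median 0.89), 6 lower in the pith (median -2.24) and 8 higher for phloem cap against pith (median 3.08). Over all genes, 9.93% were higher at an unadjusted edgeR p below 0.05 for phloem cap against vascular bundle, and DESeq2 called 2.87% higher. The shares called by edgeR were 0% higher there, 10.5% lower for pith against vascular bundle and 8.33% higher for phloem cap against pith. The values of TGG1 and TGG2 for phloem cap against vascular bundle, 2.45 and 2.81, lay above the aliphatic median. The difference between them and the synthesis genes was not tested.

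CYP83A1, which acts in the core of aliphatic synthesis, had 2060 and 2420 CPM in phloem cap libraries, 171 and 95.5 CPM in pith libraries and 874 and 675 CPM in vascular bundle libraries. CYP83B1, its indole counterpart, had 233 and 237 CPM in phloem cap libraries, 41.6 and 24.6 CPM in pith libraries and 120 and 74.8 CPM in vascular bundle libraries. The summed TPM of TGG1 and TGG2 was 0.563 and 0.944 times that of CYP83A1 in phloem cap libraries, 0.120 and 0.246 times in pith libraries and 0.362 and 0.302 times in vascular bundle libraries. Transcripts of TGG1 and TGG2 were thus highest relative to CYP83A1 in both phloem cap libraries. GTR1 and GTR2, which import glucosinolates into cells, were not called by edgeR in any comparison. GTR1 had 17.0 and 21.1 CPM in phloem cap libraries, 12.7 and 10.6 CPM in pith libraries and 25.9 and 37.8 CPM in vascular bundle libraries, and its unadjusted edgeR p was 0.0444 for phloem cap against vascular bundle and 0.00214 for pith against vascular bundle, where DESeq2 called it. GTR2, the more abundant of the pair, had 103 and 58.2 CPM in phloem cap libraries, 63.8 and 53.3 CPM in pith libraries and 79.4 and 53.2 CPM in vascular bundle libraries. Its tissues overlapped, with log2 fold changes of 0.26 ± 0.37 for phloem cap against vascular bundle and -0.18 ± 0.27 for pith against vascular bundle (edgeR adjusted p = 0.745 and 0.656).

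**Figure D4:**
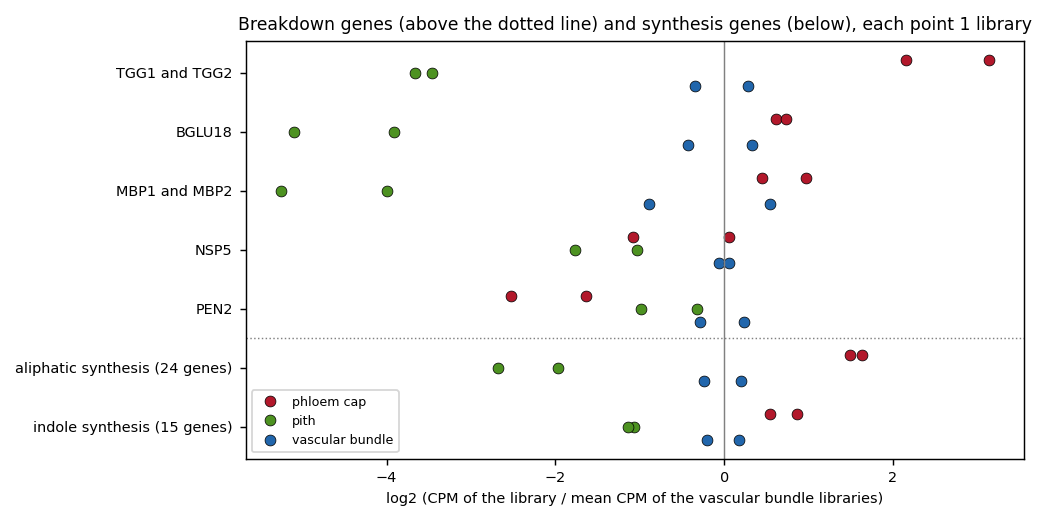
Each point is 1 library, placed by the log2 ratio of its CPM to the mean of the vascular bundle libraries, for breakdown genes above the dotted line and summed synthesis genes below it. The phloem cap points of TGG1 and TGG2 lie at 2.16 and 3.14 and those of aliphatic synthesis at 1.63 and 1.49, while PEN2 lies at -2.53 and -1.63.

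The genes most like TGG1 and TGG2 were ranked by the root mean square difference between centred log2 CPM profiles over the 6 libraries, among 10829 genes with at least 10 CPM on average. The 5 closest were MIPS3 (0.354), AT2G25450 (0.362), PS2 (0.367), SOT17 (0.388) and LCR69 (0.409). MIPS3 is a myo-inositol-phosphate synthase and PS2 a phosphatase named for phosphate starvation. SOT17 is a sulfotransferase of glucosinolate synthesis and LCR69 a small cysteine-rich protein. No function is assigned to AT2G25450 here. SOT17 had 221 and 274 CPM in phloem cap libraries, 2.42 and 3.42 CPM in pith libraries and 83.9 and 52.4 CPM in vascular bundle libraries. Of the other genes described here, MBP2 ranked 125th (0.834), BGLU18 130th (0.839), MBP1 660th (1.656), ESP 911th (1.898), NSP5 1967th (2.263) and PEN2 9796th (3.152) of 10827, with CYP83A1 at rank 192. For phloem cap against pith, the 5 closest genes had edgeR log2 fold changes from 6.37 (AT2G25450) to 8.66 (MIPS3). Those of TGG1 and TGG2 were 6.28 and 6.29. MIPS3 had 0.0551 and 0.158 CPM in pith libraries, less than the 0.5 added to CPM before the logarithm. PEN2 stood far down the ranking. These ranks rest on 6 libraries of 3 tissues and carry no test.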

How the data were processed

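The deposited values are raw counts of reads per gene for 6 LCM libraries, with 0 count columns left unused. The authors amplified the RNA in 2 rounds, mapped untrimmed single-end reads of 50 bases to TAIR10 with STAR 2.5.0a, kept unique alignments and counted them per Araport11 gene in R 3.5.0, introns included and strand ignored. Overlapping and near-identical genes are therefore uncertain, and since reads are not independent molecules, limits from counting cover counting error only. The TAIR10.1 annotation held all 37051 identifiers.

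Counts were filtered with filterByExpr, normalized by TMM and tested with edgeR 4.0.16 (glmQLFit, robust, and glmQLFTest) in R 4.3.3 with limma 3.58.1, on the 4 libraries of each of 3 comparisons and with Benjamini-Hochberg adjustment over all genes tested. Calls used the thresholds of the study, which applied them with the DESeq2 Wald test and not with edgeR. Each SE was derived as |log2 fold change| over the root of the F statistic. On simulated counts, edgeR recovered 76% of 4-fold changes for phloem cap against vascular bundle (18566 genes). It recovered 82% for pith against vascular bundle (17862 genes) and 42% for phloem cap against pith (18235 genes). Of 16-fold changes it recovered 100% in each. In the measured libraries, edgeR called 0 of 18528 genes for phloem cap against vascular bundle. The largest log2 fold change among the indole synthesis genes there, 4.45, is above 16-fold and was not called (edgeR adjusted p = 0.0486). The share of true changes recovered in the measured libraries was not tested. Alternatives were DESeq2 1.42.0 (Wald test), DESeq2 size factors, library totals, no filter, at least 10 counts in 2 libraries, 1 fit over 6 libraries, an adjusted p of 0.05, no fold minimum, exon length for TPM, and each library left out. All 10 genes were named, CYP83A1 and CYP83B1 could be named as synthesis genes the study shows, and from each related list the most abundant gene and up to the 3 most abundant genes called by edgeR or DESeq2 could be named. Not all of these are printed. TGG3 to TGG5, BGLU25, GSTF10, NAI1 and the single guard cell markers fall outside this rule and were named after their values were seen. PEN3, PCS1 and JAL34 were also named after their values were seen. For likeness, log2(CPM + 0.5) was used. The genes and lists were chosen with earlier results of these data known. The nuclei-based libraries of the study were not analysed here.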

Additional observations from a re-analysis of the deposited data

How the results depend on the processing

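Of 240 log2 fold changes of the 8 genes under the alternatives, 209 kept their direction and side of the threshold, 24 gained a call, 2 lost it and 5 reversed. The reversals were for phloem cap against vascular bundle, where ESP became 0.97 without vascular bundle replicate 2 and 0.45 without phloem cap replicate 2, NSP5 became 0.03 without phloem cap replicate 2, and MBP1 became 0.82 without vascular bundle replicate 1 and 0.14 without phloem cap replicate 2. With single libraries left out, these values ranged from -1.79 to 0.97 for ESP, from -1.10 to 0.03 for NSP5 and from -1.04 to 0.82 for MBP1. In that comparison DESeq2 called 2 genes higher and 1 lower, against 0 and 0 in edgeR, and leaving out a library gave 0 to 2 higher and 0 to 1 lower. For pith against vascular bundle, 7 genes were called lower by DESeq2 or at an adjusted p below 0.05, against 4. For phloem cap against pith, 1 gene was called lower without a count filter or at an adjusted p below 0.05, against 0. The cause of these differences was not tested. No paired analysis was possible because the tissues share no replicate numbers in the labels. The tissues were dissected one after the other and may share sections or plants, but no source used here states which libraries would pair. With a library left out, the lone library of its tissue was assumed to vary like the other tissue. Counts limit PYK10 and ESM1, for which a difference was not detectable at this depth.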
